A study of Mus musculus with 2 samples.

Results

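The genes described here are 10 members of the Wnt pathway, read across the cell types of the fetal mouse lung: the ligands Wnt2, Wnt5a and Wnt11, the secreted agonist Rspo1, the R-spondin receptors Lgr4, Lgr5 and Lgr6, the nuclear factors Lef1 and Tcf7l2, and Axin2, a feedback gene that the pathway itself switches on. They were chosen by name, with no measured value in the rule, and are 10 of the 32285 genes counted in both libraries. All 10 were detected in both libraries, and their values are given below for nuclei sorted into cell types by marker genes that do not include them.

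In the canonical Wnt pathway a secreted Wnt ligand binds a Frizzled receptor with an LRP co-receptor, which spares beta-catenin from destruction so that it can enter the nucleus and act with TCF and LEF proteins on target genes. R-spondins bind LGR receptors and keep Frizzled receptors at the cell surface, which makes a cell more sensitive to Wnt. Other ligands, of which Wnt5a is the best known, mostly act through branches that do not need beta-catenin. In the developing lung Wnt2 is a mesenchymal ligand that promotes growth of the organ, Wnt5a shapes branching and alveolar growth, and Axin2 is widely used to mark cells that respond to Wnt.

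Lung nuclei of wild type C57BL/6J fetuses were profiled on gestation day 18 with an assay of RNA and open chromatin in each single nucleus. The PBS library came from 9 pooled fetuses of 1 mother that was given PBS with alum into the abdomen before mating and PBS into the nose through most of gestation. The OVA library came from 8 pooled fetuses of 1 mother that was given ovalbumin (OVA) with alum and then OVA into the nose on the same schedule, a model of asthma in pregnancy. In both groups 3 populations were sorted before nuclei were isolated: group 2 innate lymphoid cells (ILC2s: CD45+, Lin-, ST2+), all CD45+ cells and EpCAM+ epithelial cells. With 1 library per group there is no replicate and no test, the intervals in this text are 95% intervals for counting error only, and the values compare 2 libraries and not the maternal treatments.

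The libraries held 8019 (PBS) and 5960 (OVA) barcodes with 11473351 and 13774959 gene UMIs, a UMI being 1 counted RNA molecule. Mitochondrial genes took 45.2% and 29.2% of them, and levels below are therefore UMIs per 1000000 nuclear-gene UMIs (CPM), with mitochondrial genes out of the total. After filtering, 4279 and 4996 nuclei remained, with medians of 649 and 1217 nuclear-gene UMIs. The libraries shared 54 barcodes, of which 30 were kept in both.

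A nucleus was gated to a type when at least 3 of the 10 markers of that type had a UMI and this number was at least 2 above that of every other type. The rule placed 35.8% of PBS and 44.6% of OVA nuclei. At least 50 nuclei in each library were gated as alveolar type 2 (AT2; 461 PBS, 314 OVA), alveolar type 1 (AT1; 191 and 272), alveolar fibroblast (303 and 719), pericyte (75 and 125) and ILC2 (268 and 456). Another 3 gates held 20 to 49 nuclei in a library: smooth muscle or myofibroblast (47 and 76), macrophage (41 and 44) and mast cell or basophil (45 and 82). The sort named immune and epithelial cells only, yet fibroblast, pericyte and muscle markers defined 3 of these 8 gates.

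All nuclei were also clustered, with the 10 genes and the rest of the Wnt pathway left out of the clustering, and 14 clusters had at least 50 nuclei in each library. This second grouping was added after the gated values had been seen, because most nuclei were in no gate. Clusters 0, 1 and 2 held alveolar fibroblast nuclei, cluster 7 AT1, cluster 12 AT2, cluster 15 pericyte, cluster 10 ILC2, cluster 5 monocyte and cluster 21 mast cell or basophil nuclei. Cluster 9 (460 PBS and 392 OVA nuclei, led by Nrxn3, Csmd1 and Nlgn1) was left unnamed: 62.0% of its gated nuclei were smooth muscle or myofibroblast, with those markers summing to 3655 and 3665 CPM, but alveolar fibroblast markers also summed to 2267 and 2169 CPM there. Clusters 3, 6 and 16 had macrophage markers at 846 to 1585 CPM and stayed unnamed too, since no gate took 80% of their gated nuclei, and in cluster 3 the most frequent gate was AT2, at 42.4%. Cluster 20, in which 48.8% of gated nuclei were smooth muscle or myofibroblast, was left unnamed as well.

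On the GRCm38 build, the ligand genes lay on chromosome 6 from 17988940 to 18030585 on the minus strand (Wnt2), on chromosome 14 from 28504750 to 28527448 on the plus strand (Wnt5a) and on chromosome 7 from 98835112 to 98855195 on the plus strand (Wnt11). Rspo1 lay on chromosome 4 from 124986430 to 125009099 on the plus strand. The receptor genes lay on chromosome 2 from 109917647 to 110014257 on the plus strand (Lgr4), on chromosome 10 from 115450311 to 115587780 on the minus strand (Lgr5) and on chromosome 1 from 134983301 to 135105276 on the minus strand (Lgr6). Lef1 lay on chromosome 3 from 131110471 to 131224356, Tcf7l2 on chromosome 19 from 55741820 to 55933654 and Axin2 on chromosome 11 from 108920349 to 108950783, all on the plus strand.

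The DNA just before the start of transcription is shown for 4 genes that are called highest in a gate below, because the open chromatin measured at these starts is compared with that RNA, and for Wnt11, which alone held the letters a TCF or LEF protein prefers. The sequences are from RefSeq promoter windows (GRCm38.p6), 5′ to 3′ on the strand of the gene, and the Wnt2 window is shortened to the 110 bases outside the annotated transcript. Capitals mark ATCAAAG, the reverse complement of the searched motif CTTTGAT.
Wnt2, chr6:18030586-18030695, minus strand: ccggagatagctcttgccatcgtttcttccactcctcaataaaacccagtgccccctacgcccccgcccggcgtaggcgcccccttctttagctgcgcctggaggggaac
Rspo1, chr4:124986180-124986429, plus strand: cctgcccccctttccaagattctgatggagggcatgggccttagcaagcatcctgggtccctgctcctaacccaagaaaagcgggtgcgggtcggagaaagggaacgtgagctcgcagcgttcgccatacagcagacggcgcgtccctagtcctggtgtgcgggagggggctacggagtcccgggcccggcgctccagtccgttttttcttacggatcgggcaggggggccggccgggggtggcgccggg
Tcf7l2, chr19:55741560-55741809, plus strand: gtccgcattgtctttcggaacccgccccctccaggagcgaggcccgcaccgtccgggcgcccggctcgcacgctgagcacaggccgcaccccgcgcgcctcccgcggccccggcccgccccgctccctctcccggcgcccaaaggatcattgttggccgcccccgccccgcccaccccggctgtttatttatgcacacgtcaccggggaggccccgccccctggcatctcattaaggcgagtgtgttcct
Lgr6, chr1:135105277-135105526, minus strand: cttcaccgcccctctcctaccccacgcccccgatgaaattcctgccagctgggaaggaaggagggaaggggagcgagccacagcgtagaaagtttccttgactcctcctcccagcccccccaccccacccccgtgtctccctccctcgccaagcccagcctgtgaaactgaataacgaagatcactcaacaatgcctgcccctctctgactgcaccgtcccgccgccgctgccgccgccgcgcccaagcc
Wnt11, chr7:98834862-98835111, plus strand: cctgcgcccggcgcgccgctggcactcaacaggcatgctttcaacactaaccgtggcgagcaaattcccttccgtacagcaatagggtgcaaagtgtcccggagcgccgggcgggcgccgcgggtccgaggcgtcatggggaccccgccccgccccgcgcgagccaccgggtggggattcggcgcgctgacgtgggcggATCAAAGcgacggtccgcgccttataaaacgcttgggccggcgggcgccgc
Each of these windows overlapped 1 peak of open chromatin in each library. The motif, searched on both strands, was found in 1 of 13 windows of the 8 genes that the promoter table held, and in 3.21% of all 32851 windows of the table. The match in Wnt11 began 51 bases before the start, counted from an annotated start that lies outside the start interval of the deposited feature table. Windows for Wnt5a and Lgr5 were not used here.

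Wnt2 was the ligand with the sharpest pattern. Alveolar fibroblast nuclei held 100 Wnt2 UMIs in the PBS library, a level of 242 CPM (197 to 295), and 402 UMIs in the OVA library, a level of 249.3 CPM (226 to 275). AT2 nuclei stood at 6.86 and 6.91 CPM, AT1 nuclei at 3.59 and 1.81 CPM, and ILC2 nuclei, with 1 UMI in each library, at 6.08 and 2.05 CPM. Pericyte nuclei had 0 PBS and 4 OVA UMIs, and macrophage and mast cell or basophil nuclei had 0 in both. The fibroblast level was 5.14 log2 units above the next gate in the PBS library (3.74 to 7.05, against AT2) and 3.76 above it in the OVA library (2.39 to 5.64, against pericyte). Below the fibroblast gate the order of the gates could not be told from counting error in either library.

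The fibroblast clusters did not share Wnt2 evenly. Cluster 1 stood at 380 and 266 CPM, cluster 0 at 251 in both libraries, and cluster 2 (led by Abca8a, Ptn and Pcdh9) at 50.5 and 66.4 CPM. Cluster 1 exceeded cluster 2 by 2.91 log2 units (2.00 to 4.00) in the PBS library and by 2.00 (1.28 to 2.81) in the OVA library. It exceeded cluster 0 by 0.60 (0.16 to 1.05) in the PBS library, while in the OVA library the difference was 0.09 (-0.23 to 0.39). Wnt2 was thus low in one group of fibroblast nuclei and high in the rest, in both libraries.

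Wnt5a, a ligand best known for signalling without beta-catenin, was highest in smooth muscle or myofibroblast nuclei, with 22 UMIs and 428 CPM (268 to 647) in the PBS library and 25 UMIs and 194 CPM (126 to 287) in the OVA library. Alveolar fibroblast nuclei followed at 131 CPM (54 UMIs) and 72.6 CPM (117 UMIs), and pericyte nuclei stood at 38.0 and 50.7 CPM. AT2 nuclei stood at 10.3 and 4.15 CPM and AT1 nuclei at 10.8 and 3.62 CPM. The level of the muscle or myofibroblast gate was 1.71 log2 units (0.92 to 2.45) and 1.42 (0.74 to 2.05) above the next gate. In clusters the pattern was clearer, since cluster 9 held 165 and 170 UMIs at 418 and 289 CPM, which was 1.92 (1.46 to 2.41) and 2.09 (1.73 to 2.45) log2 units above the next cluster. Cluster 20 had 0 and 3 Wnt5a UMIs.

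Wnt11, another ligand of the branches without beta-catenin, was too rare to rank. Kept nuclei held 18 (PBS) and 42 (OVA) Wnt11 UMIs. Of these, 7 and 13 were in cluster 9 and 5 and 6 in cluster 12, which held the AT2 nuclei. No gate stood apart from the next beyond counting error.

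**Figure D1:**
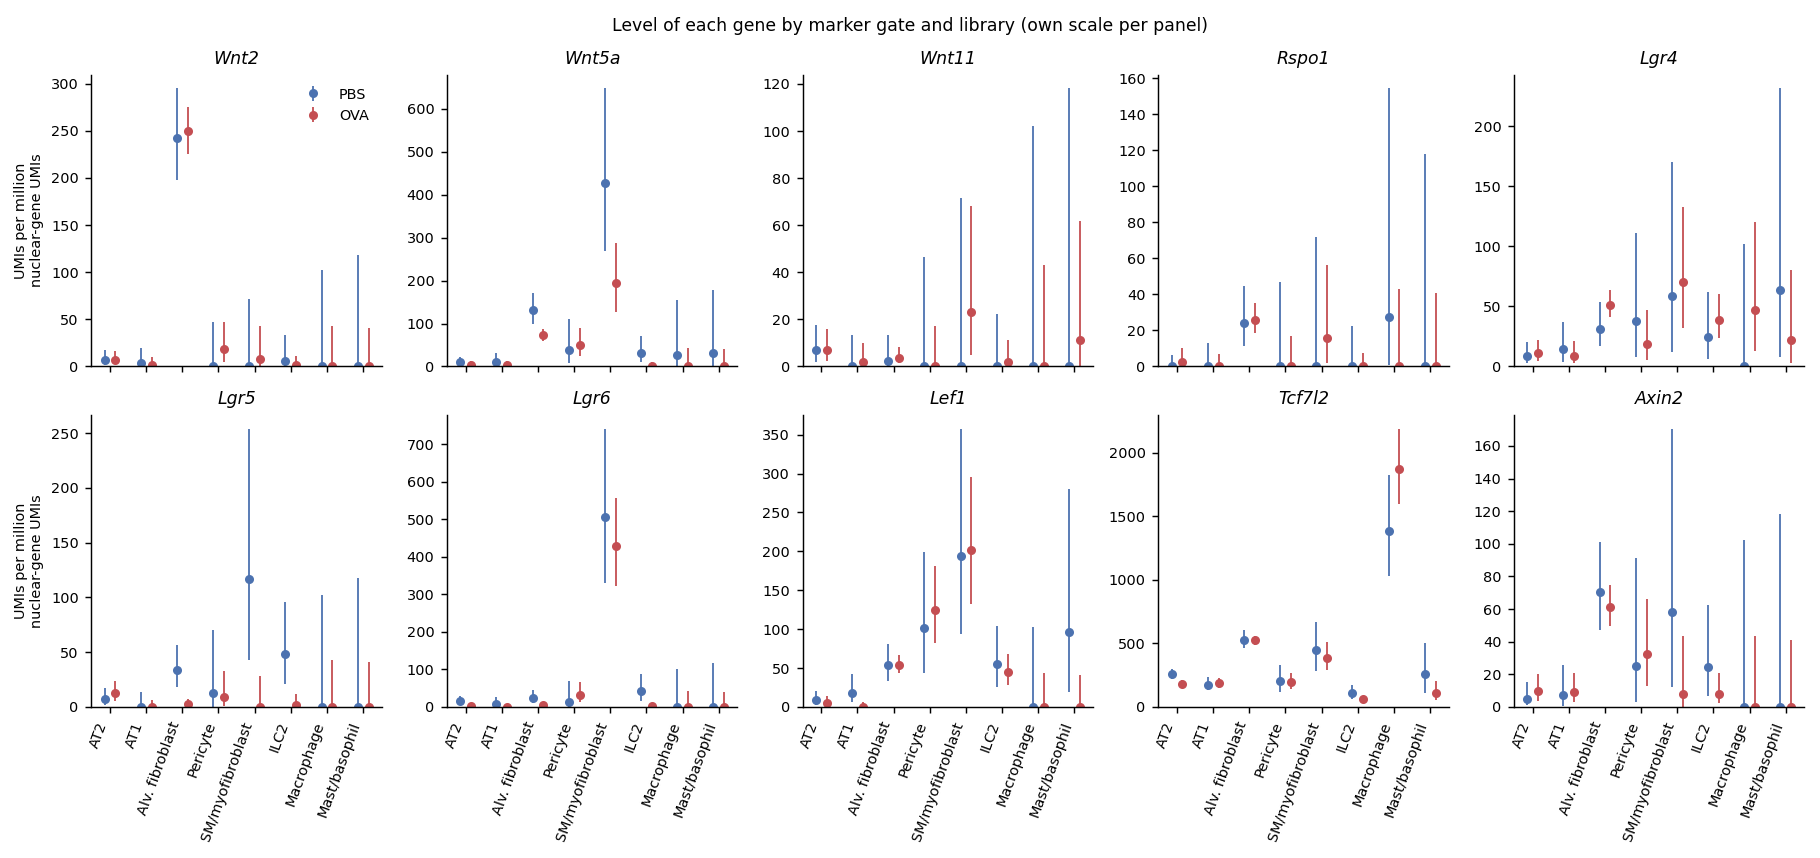
Level of each of the 10 genes (UMIs per 1000000 nuclear-gene UMIs, own scale per panel) in the gated cell types, in the PBS and the OVA library, with 95% Poisson intervals for counting error as bars. In both libraries Wnt2 is highest in the alveolar fibroblast gate, Wnt5a and Lgr6 in the smooth muscle or myofibroblast gate and Tcf7l2 in the macrophage gate.

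Rspo1, a secreted R-spondin that binds LGR receptors, was found mostly in alveolar fibroblasts, as Wnt2 was. Alveolar fibroblast nuclei had 10 UMIs at 24.2 CPM (11.6 to 44.6) in the PBS library and 42 UMIs at 26.0 CPM (18.8 to 35.2) in the OVA library. In the OVA library this was 3.24 log2 units (1.29 to 6.33) above AT2 nuclei, which held 2 UMIs. In the PBS library AT2, AT1, pericyte and ILC2 nuclei all held 0 UMIs. The fibroblast level there was 4.71 times a floor of 3 counts in AT2, 2.25 times that in AT1 and 1.33 times that in ILC2 nuclei. These multiples leave out the counting error of the 10 fibroblast UMIs, so they are not lower limits. With that error, the lower limit of the log2 lead over AT2 nuclei was 1.66. The floor of the 75 PBS pericyte nuclei was above the fibroblast level, and the PBS macrophage gate held 1 UMI at 27.7 CPM. By cluster, Rspo1 stood at 39.0 and 26.5 CPM in cluster 0, 8.84 and 35.02 CPM in cluster 1, and 10.1 and 7.4 CPM in cluster 2. A small cluster of 10 PBS and 14 OVA nuclei, whose gated nuclei were mostly mesothelium, held 1 and 5 Rspo1 UMIs. Its Rspo1 level was above that of cluster 0 by 2.63 log2 units (0.94 to 3.97) in the OVA library. In the PBS library the difference was 0.64 (-4.81 to 3.49), within counting error. The highest OVA level of Rspo1 was thus not in a fibroblast cluster, though it rests on 5 UMIs.

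The 3 LGR receptors, all of which bind R-spondins, had different patterns. Lgr6 was confined mostly to smooth muscle or myofibroblast nuclei, which held 26 UMIs at 505 CPM (330 to 740) in the PBS library and 55 UMIs at 427 CPM (322 to 556) in the OVA library. This was 3.57 log2 units (2.33 to 5.02) and 3.73 (2.59 to 5.11) above the next gate. Alveolar fibroblast nuclei stood at 24.2 and 6.20 CPM, AT2 nuclei at 15.4 and 1.38 CPM and pericyte nuclei at 12.7 and 32.2 CPM. PBS nuclei gated as ILC2 gave 42.6 CPM, but all 7 of those UMIs were in nuclei outside the ILC2 cluster, which held 0 and 1 Lgr6 UMIs.

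Across clusters, Lgr6 stood at 436 and 401 CPM in cluster 9, with 172 and 236 UMIs, and at 157 and 82.3 CPM in cluster 20, with 12 and 11 UMIs. Cluster 9 exceeded cluster 20 by 1.47 log2 units (0.63 to 2.45) and 2.29 (1.42 to 3.31). No other cluster of the 14 held more than 2 UMIs in the PBS library or more than 3 in the OVA library. Clusters 9 and 20, both left unnamed, therefore held nearly all of the Lgr6 RNA in the clusters compared.

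Lgr4, the most widely used of the 3 receptors in other tissues, was low and spread over many types. Alveolar fibroblast nuclei stood at 31.5 CPM (13 UMIs) and 51.5 CPM (83 UMIs), ILC2 nuclei at 24.3 and 38.9 CPM, smooth muscle or myofibroblast nuclei at 58.3 and 69.9 CPM, and AT2 nuclei at 8.58 and 11.1 CPM. In neither library did the highest of the 5 larger gates differ from the next beyond counting error. In ILC2 nuclei Lgr4 was the only LGR receptor with more than a stray UMI in the ILC2 cluster, with 5 and 19 UMIs there against 1 and 1 for Lgr5 and 0 and 1 for Lgr6.

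Lgr5, known as a marker of stem cells in the gut, was counted 44 times in 22 PBS nuclei and 71 times in 37 OVA nuclei. It was highest in fibroblast cluster 2, at 85.8 and 73.8 CPM, and in cluster 9, at 45.6 and 40.8 CPM, and it was absent or at most 4 UMIs in fibroblast clusters 0 and 1. The cluster 2 level rested on few nuclei, with 17 UMIs in 6 PBS nuclei of which 9 were in 1 nucleus, and 20 UMIs in 4 OVA nuclei of which 14 were in 1 nucleus. Cluster 2 was above cluster 9 by 0.91 log2 units (-0.13 to 1.95) and 0.85 (-0.08 to 1.77), so those 2 could not be ordered. AT2 nuclei held 4 and 9 Lgr5 UMIs, the 9 in 9 separate nuclei.

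**Figure D2:**
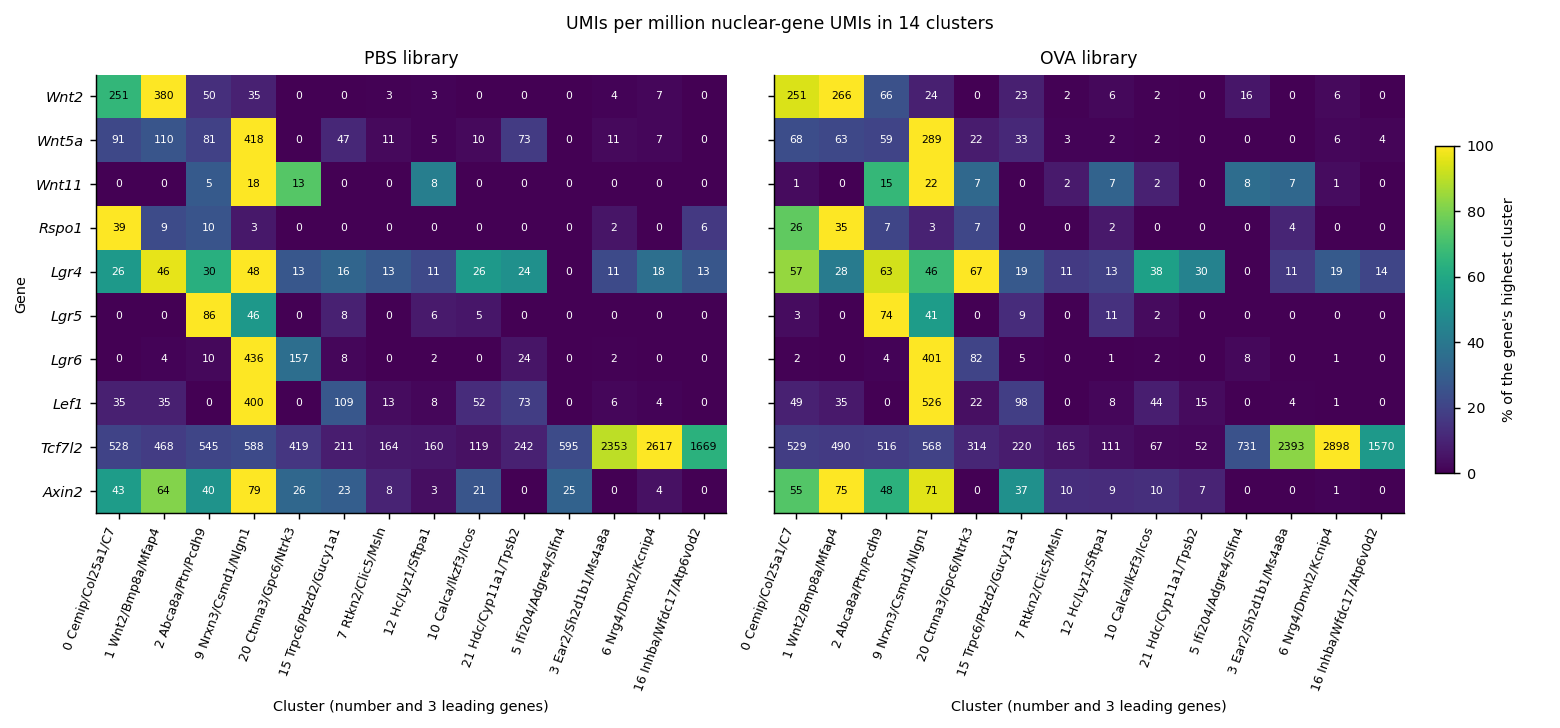
Levels of the 10 genes in the 14 clusters with at least 50 nuclei in each library, PBS and OVA side by side. Numbers are UMIs per 1000000 nuclear-gene UMIs and colour is the percent of the highest cluster of that gene in that library. Cluster 9 stands out for Lgr6, Lef1 and Wnt5a, clusters 3, 6 and 16 for Tcf7l2, and clusters 0 and 1 for Wnt2.

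Lef1 and Tcf7l2 encode nuclear factors that carry beta-catenin to DNA, and they differed in where they were highest. Lef1 was highest in the muscle or myofibroblast gate at 194 and 202 CPM (10 and 26 UMIs), then in pericyte nuclei at 101 and 124 CPM, and stood at 53.3 and 54.6 CPM in alveolar fibroblast and 54.7 and 45.003 CPM in ILC2 nuclei. The intervals of the first 2 gates overlapped in both libraries, so their order could not be told from counting error. Macrophage nuclei held 0 Lef1 UMIs in both libraries, and AT2 nuclei stood at 8.58 and 5.53 CPM. Cluster 9 alone held 158 and 309 of the 240 and 488 Lef1 UMIs, at 400 and 526 CPM, which was 1.87 (1.08 to 2.78) and 2.42 (1.78 to 3.13) log2 units above pericyte cluster 15.

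Tcf7l2 was the most often counted of the 10 genes, with 3237 and 7470 UMIs, and among the gates was highest in that of macrophages. Nuclei in the macrophage gate stood at 1385 CPM (50 UMIs) and 1874 CPM (160 UMIs), above alveolar fibroblast nuclei at 529 and 525 CPM (218 and 847 UMIs). The macrophage gate led by 1.39 log2 units (0.92 to 1.84) in the PBS library and by 1.84 (1.58 to 2.08) in the OVA library. AT2 nuclei stood at 257 and 181 CPM, AT1 at 176 and 186 CPM, pericyte at 202 and 198 CPM and ILC2 at 109 and 63.4 CPM.

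The gate missed most of the nuclei behind that level. Ungated nuclei held 2625 and 5900 Tcf7l2 UMIs, and these were chiefly in clusters 6 (2617 and 2898 CPM), 3 (2353 and 2393 CPM) and 16 (1669 and 1570 CPM), the unnamed clusters with macrophage markers. Cluster 14, the only cluster named macrophage, held 25 of 41 PBS and 20 of 44 OVA nuclei of the gate and stood at 482 and 413 CPM, so cluster 6 exceeded it by 2.44 log2 units (1.68 to 3.32) and 2.81 (2.22 to 3.47). In the named macrophage cluster Tcf7l2 was thus near the fibroblast level, and the high levels were in clusters that could not be named.

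Axin2, the feedback inhibitor that Wnt signalling induces, had its highest value among the 5 larger gates in alveolar fibroblasts. Alveolar fibroblast nuclei stood at 70.3 CPM (29 UMIs) and 61.4 CPM (99 UMIs), pericyte nuclei at 25.3 and 32.2 CPM, AT2 nuclei at 5.15 and 9.67 CPM, AT1 nuclei at 7.19 and 9.05 CPM and ILC2 nuclei at 24.3 and 8.18 CPM. The muscle or myofibroblast gate stood at 58.3 CPM from 3 PBS UMIs and 7.77 CPM from 1 OVA UMI. The fibroblast lead over pericytes was within counting error in both libraries. By cluster, Axin2 was 78.5 and 71.4 CPM in cluster 9 and 64.1 and 74.7 CPM in cluster 1, while clusters 3 and 16 held 0 UMIs in both libraries and cluster 6 held 1 in each. The clusters with the most Tcf7l2 RNA were thus those with almost no Lef1 or Axin2 RNA.

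Over the 5 larger gates, a gene was called highest in a gate when its level there was at least 2 times that of every other gate in both libraries, with at least 30 UMIs in that gate. Of the 10 genes, 7 had enough UMIs and 3 were called, all for alveolar fibroblasts: Wnt2, Rspo1 and Tcf7l2. The same rule called 18.5% of all 8559 genes tested for some gate and 4.01% for alveolar fibroblasts. Wnt11, Lgr5 and Lgr6 did not have enough UMIs in any of the 5 gates. Wnt2, Wnt5a, Rspo1, Lgr4 and Axin2 had enough only in the fibroblast gate, so the UMI minimum left no other gate open to them. Only Lef1 and Tcf7l2 could have been called for another gate. The call of Rspo1 in the PBS library rests on 10 UMIs against none. Over the 20 pairs of a gene and a library, the highest of the 5 gates led the next beyond counting error in 9. Among these is Rspo1 in the PBS library, where AT2, AT1, pericyte and ILC2 nuclei tied at 0 UMIs. That pair was counted by its lead over AT2, the gate with the most nuclear-gene UMIs of those at 0. The count thus does not show a lead over the shallower ones.

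With the 3 smaller gates added, 4 of 8 genes were called: Wnt2 for alveolar fibroblasts, Wnt5a and Lgr6 for smooth muscle or myofibroblasts, and Tcf7l2 for macrophages, against 11.7% of all 8618 genes. Rspo1 was not called there, given the 1 UMI of the PBS macrophage gate. Wnt2 had enough UMIs only in the fibroblast gate and Lgr6 only in the muscle or myofibroblast gate, so each could be called for no other gate. Over the 14 clusters 3 of 9 genes were called, Lgr6, Lef1 and Wnt5a, all for cluster 9, against 8.2% of 9519 genes for any cluster and 0.966% for cluster 9. Lgr6 had enough UMIs only in cluster 9, so it could be called for no other cluster. Wnt2 was not called over the clusters because clusters 0 and 1 both held it. Tcf7l2 was not called because 3 clusters were high.

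The share of nuclei with at least 1 UMI was also taken at equal depth, with every nucleus drawn down to 500 nuclear-gene UMIs. It gave the same picture for Wnt2, Lgr6 and Tcf7l2. For Wnt5a the muscle or myofibroblast gate stood at 8.11% (PBS) and 7.89% (OVA), and fibroblasts at 7.30% and 3.36%. For Lef1 that gate stood at 5.41% and 13.2%, and pericytes at 7.27% and 5.13%. The intervals of each of these pairs of gates overlapped. Wnt2 was found in 14.96% (11.0% to 19.7%) of 274 PBS and 10.5% (8.35% to 12.99%) of 714 OVA alveolar fibroblast nuclei. In ILC2 nuclei, which should lack the gene, it was found in 0 of 137 (upper limit 2.66%) and 0 of 400 (upper limit 0.918%), and 29 and 5 shallower fibroblast nuclei were left out. Without thinning, 24.4% and 32.3% of fibroblast nuclei held it, with median depths of 1080 and 1885 UMIs, where ILC2 nuclei had 503 and 926. Lgr6 was found in 16.8% and 16.02% of thinned cluster 9 nuclei (23.7% and 31.1% unthinned) and in 0 of 151 (upper limit 2.41%) and 0 of 411 (upper limit 0.894%) ILC2 cluster nuclei. Tcf7l2 was found in 70.1% and 73.0% of thinned nuclei of cluster 6 and in 5.30% and 1.22% of those of the ILC2 cluster. Lef1 was found in 17.9% and 20.7% in cluster 9, 2.65% and 2.68% in the ILC2 cluster, and 0.446% and 0 of 853 nuclei (upper limit 0.432%) in cluster 6.

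The chromatin at the starts of these genes was read from the same nuclei, as transposition counts in peaks within 2 kb (2000 bases) of the start per 1000000 peak counts of the gate or cluster. Peaks were called in each library separately, so accessibility was compared between cell types only within a library, and intervals counted each pair of ends as 1 because 91.3% and 91.2% of the values were even. At Wnt2 the alveolar fibroblast gate stood at 38.0 (PBS) and 34.8 (OVA) against 6.75 and 6.58 in AT2 nuclei, a log2 difference of 2.50 (1.62 to 3.42) and 2.40 (1.48 to 3.48). ILC2 nuclei stood at 2.95 and 4.03. Pericyte nuclei, at 11.4 and 23.9, could not be told from fibroblasts in the OVA library, where the log2 difference was 0.54 (-0.30 to 1.504).

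At Rspo1 the fibroblast gate stood at 44.3 and 52.1, against 13.9 and 14.4 in AT2 and 8.84 and 11.8 in ILC2 nuclei. Its log2 lead over AT2 nuclei was 1.67 (0.98 to 2.37) and 1.85 (1.21 to 2.56). At Wnt2 the OVA smooth muscle or myofibroblast gate stood at 35.5 (17.7 to 63.5), level with fibroblasts although it held 1 Wnt2 UMI. Open chromatin at both genes was thus higher in fibroblast than in AT2 and ILC2 nuclei in both libraries. At Wnt2 the PBS fibroblast gate had the highest value of the 8 gates, followed by mast cell or basophil nuclei at 13.3. In the OVA library the fibroblast gate could not be told from the muscle or myofibroblast gate.

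At Lgr6 cluster 9 stood at 39.6 and 41.3 against 18.7 and 12.9 in fibroblast cluster 1 and 7.27 and 6.39 in cluster 3. The lead over cluster 1 was 1.08 (0.51 to 1.66) and 1.67 (0.94 to 2.46) log2 units, while the lead over cluster 20 was within counting error in the PBS library (1.07, -0.22 to 2.73). The PBS intervals of fibroblast cluster 0, at 32.2 (15.1 to 60.2), and ILC2 cluster 10, at 27.1 (18.9 to 37.7), also overlapped that of cluster 9 (31.0 to 49.8). Lef1 and Wnt5a, which shared the RNA pattern of Lgr6, did not share this one. At Lef1 cluster 9 (42.6 and 39.2), ILC2 cluster 10 (41.1 and 46.2) and cluster 1 (35.01 and 40.7) could not be told apart, although cluster 9 had the most Lef1 RNA. At Wnt5a cluster 9 stood at 16.4 in both libraries and cluster 1 at 15.6 and 13.9, within counting error, while cluster 3 had 0 counts.

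At Axin2 cluster 1 stood at 103 and 102, 3.49 (2.93 to 4.11) and 3.31 (2.54 to 4.20) log2 units above cluster 3, which held 0 Axin2 UMIs, and cluster 6 stood at 7.48 and 6.82. ILC2 nuclei, with few Axin2 UMIs, stood at 82.5 and 66.3 against 82.3 and 101 in fibroblasts. At Lgr5, cluster 2 stood at 7.61 and 7.82 and cluster 9 at 18.0 and 25.8, a log2 difference of -1.24 (-2.87 to 0.07) and -1.72 (-3.53 to -0.33), the PBS one within counting error.

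Tcf7l2 differed between the near and the wide window. Within 2 kb of its start, cluster 6 stood at 68.0 and 45.2 and cluster 1 at 72.5 and 51.8, within counting error of each other. Within 50 kb (50000 bases), cluster 6 stood at 198 and 164 and cluster 1 at 96.8 and 76.1, a lead of 1.04 (0.77 to 1.30) and 1.11 (0.83 to 1.40) log2 units. Clusters 3 and 16 had a like lead over cluster 1, between 0.93 and 1.08. These clusters thus exceeded cluster 1 in the region around the start but not within 2 kb of it. ILC2 cluster 10 was below both near the start, at 27.5 and 23.3.

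**Figure D3:**
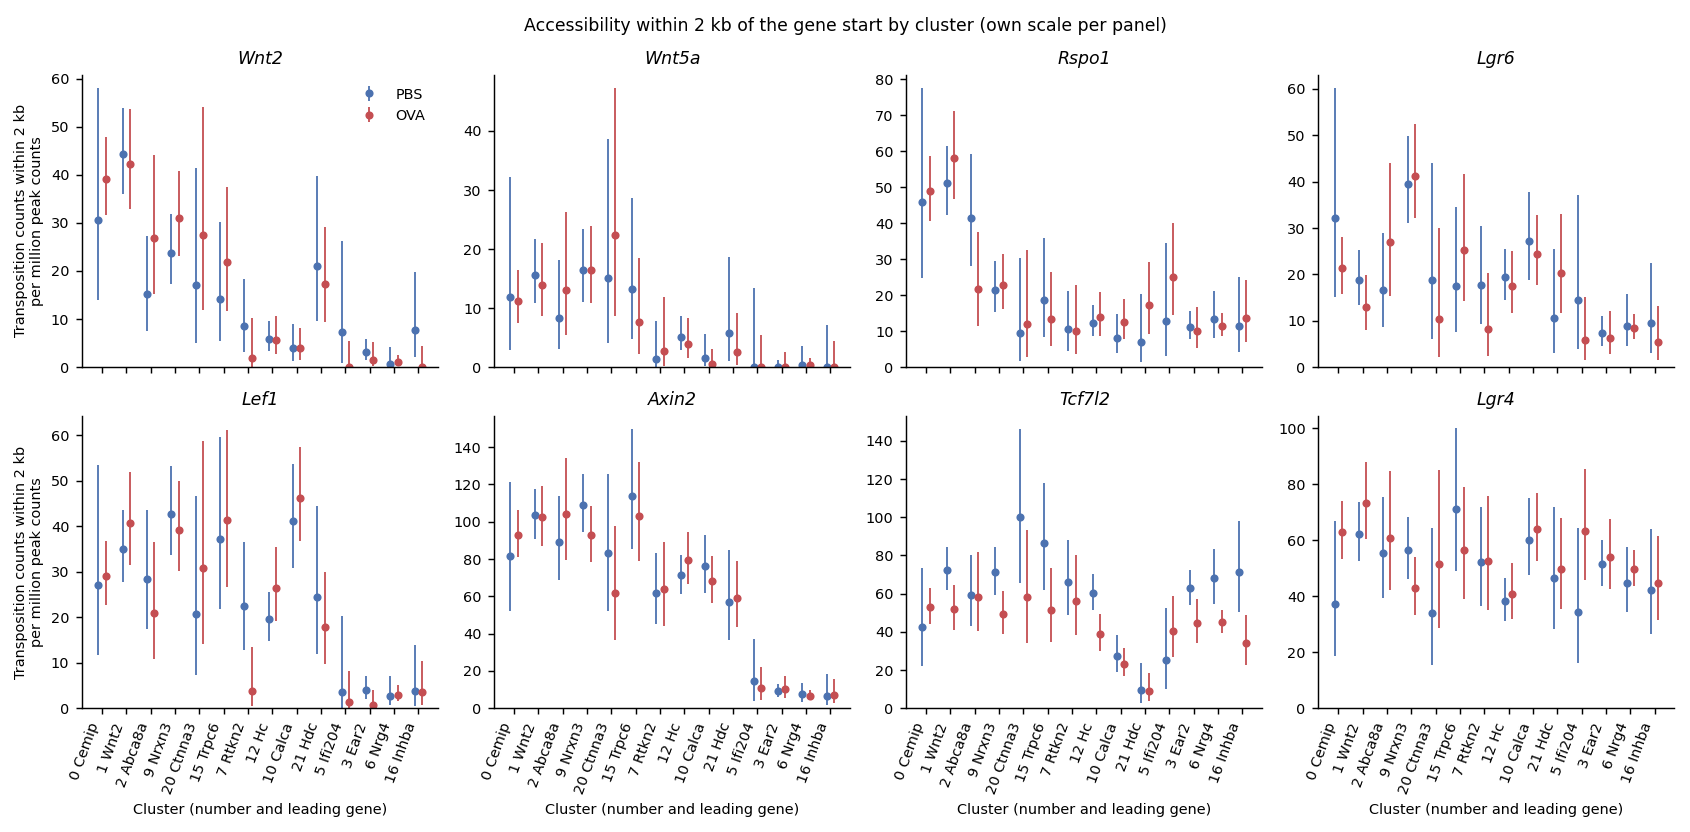
Transposition counts in peaks within 2 kb of the start of 8 genes (per 1000000 peak counts, own scale per panel) in the 14 clusters, for the PBS and the OVA library, with 95% intervals for counting error as bars. Wnt2 and Rspo1 have their highest values in fibroblast clusters 0 and 1 and Lgr6 in cluster 9, with intervals that overlap those of other clusters, and Axin2 and Lef1 are low in clusters 3, 6 and 16.

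The OVA and PBS libraries were compared for each gene in each gate with at least 30 UMIs over both, which gave 18 gene and gate pairs. A ratio was called when it was at least 2-fold and its interval left out equality. One pair was called: Wnt5a in smooth muscle or myofibroblast nuclei, lower in the OVA library by a log2 ratio of -1.14 (-2.02 to -0.24), from 22 and 25 UMIs. In that gate 1.46% of 1297 genes were called lower and 4.55% higher. Over the 8 gates together 2.26% of all 26724 gene and gate pairs were called lower and 3.2% higher.

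Wnt5a was also lower in OVA alveolar fibroblast nuclei, by -0.85 (-1.33 to -0.36), short of 2-fold. The clusters gave smaller differences: -0.53 (-0.85 to -0.21) in cluster 9, -0.81 (-1.54 to -0.10) in cluster 1, -0.42 (-1.10 to 0.33) in cluster 0 and a like value of -0.45 in cluster 2. None of these reached 2-fold. In each of these gates the PBS nuclei were shallower and richer in mitochondrial UMIs. The muscle or myofibroblast gate had median depths of 966 and 1565 nuclear UMIs and mitochondrial shares of 27.8% and 21.7%, and the fibroblast gate had 1080 and 1885 UMIs and 23.2% and 16.4%. With nuclei above 30% mitochondrial UMIs left out, Wnt5a was still called in the muscle or myofibroblast gate. Thinned to equal depth, the fibroblast ratio was -1.497, past 2-fold, and the muscle or myofibroblast gate had too few UMIs for a value. The thinned share of fibroblast nuclei with a Wnt5a UMI was 7.30% (4.52% to 11.05%) in the PBS and 3.36% (2.17% to 4.96%) in the OVA library. Without thinning, the muscle or myofibroblast gate passed 2-fold and the fibroblast gate did not. With thinning the fibroblast gate passed it, and the muscle or myofibroblast gate could not be compared.

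In alveolar fibroblast nuclei the interval of the log2 ratio included equality for Wnt2 (0.04, -0.28 to 0.37), Tcf7l2 (-0.01, -0.23 to 0.21) and Lef1 (0.03, -0.65 to 0.78). It also did for Axin2 (-0.20, -0.81 to 0.45), Rspo1 (0.10, -0.91 to 1.26) and Lgr4 (0.71, -0.14 to 1.68). Most PBS nuclei of that gate were in cluster 1 (166 of 303) and most OVA nuclei in cluster 0 (481 of 719), and within cluster 1 Wnt2 was lower in the OVA library by -0.51 (-0.87 to -0.16). Lgr6 in the muscle or myofibroblast gate gave -0.24 (-0.94 to 0.49). In AT2 nuclei Tcf7l2 gave -0.51 (-0.86 to -0.16), with 70 of 150 PBS and 57 of 131 OVA UMIs in nuclei outside the AT2 cluster. In ILC2 nuclei Lef1 gave -0.28 (-1.46 to 1.02) and Tcf7l2 -0.79 (-1.67 to 0.14), and the other 8 genes had under 30 UMIs there. Over clusters 0 of 35 gene and cluster pairs were called, against 3.13% higher and 1.92% lower of all 55018 pairs.

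**Figure D4:**
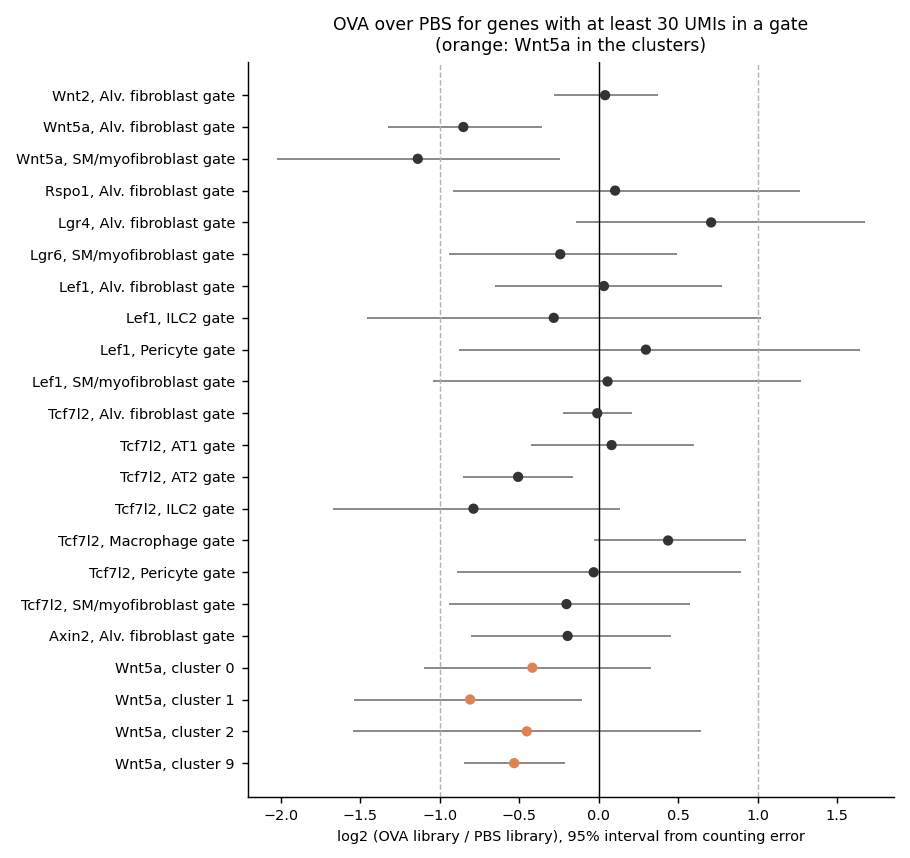
Log2 ratio of the OVA over the PBS level for the 18 gene and gate pairs with at least 30 UMIs over both libraries, and for Wnt5a in 4 clusters (orange), with 95% counting intervals as bars and 2-fold changes as dashed lines. Wnt5a lies below 0 in both gates and all 4 clusters shown, and Wnt2 lies near 0 in the alveolar fibroblast gate.

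Another 85 genes of the Wnt pathway were examined by role, to place the 10 genes among their partners. Over the 5 larger gates 52 could be tested and 9 were called highest in 1 gate, 17.3% against the 18.5% of all genes. AT1 nuclei had 4 of them, in a gate for which 3.33% of all genes were called. Wnt3a, a canonical ligand, stood at 64.7 and 59.7 CPM there, 3.24 (1.64 to 5.26) and 3.11 (1.74 to 4.83) log2 units above AT2 nuclei. Wnt7a, a ligand of the lung epithelium, stood at 46.7 and 43.4 CPM. The Frizzled receptor genes Fzd2 and Fzd5 stood at 119 and 114 CPM and at 28.8 and 39.8 CPM, and Fzd5 in the PBS library was above AT2 by less than counting error.

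Alveolar fibroblasts also had 4 calls. Rspo2, an R-spondin like Rspo1, stood at 33.9 and 29.8 CPM, with 14 and 48 UMIs against 0 in AT2 nuclei of the PBS library and 1 in AT1 nuclei of the OVA library. Sfrp1, a secreted inhibitor that binds Wnts, stood at 33.9 and 31.6 CPM, with an OVA lead over pericytes within counting error (1.78, -0.15 to 4.86), and by cluster it had its highest value in cluster 2 (55.5 and 99.6 CPM). Bcl9, a partner of beta-catenin in the nucleus, stood at 80.01 and 61.4 CPM, and Dvl2, a relay protein of the receptor complex, at 26.7 and 22.3 CPM with a lead within counting error. Pericyte nuclei, with 2.33% of all genes called, had 1 call, the ligand Wnt5b, at 228 and 129 CPM, which was 2.65 (1.58 to 3.74) and 1.75 (1.05 to 2.41) log2 units above fibroblasts. No gene of the list was called for AT2 nuclei (2.75% of all genes) or ILC2 nuclei (6.1%).

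By role, 3 of 3 tested ligands, 2 of 14 receptors and co-receptors and 1 of 11 relay genes were called. So were 1 of 10 nuclear partners, 1 of 3 R-spondins and receptor turnover genes and 1 of 3 inhibitors. Only 3 of the 16 ligands of the list had enough UMIs to be tested. Wnt3a, Wnt7a and Fzd5 had enough only in the AT1 gate, and Rspo2, Sfrp1 and Dvl2 only in the fibroblast gate. The UMI minimum thus nearly fixed the calls of these genes in advance. None of 5 genes of the planar polarity branch, 2 feedback genes and 1 gene of ligand secretion or removal was called. Over the 14 clusters 4 of 54 genes were called, or 7.41%, near the 8.2% of all genes: Wnt3a and Wnt7a for AT1 cluster 7 (1.71% of all genes), and the inhibitors Wif1 and Notum for cluster 9. Wif1, which binds Wnts outside the cell, stood at 106 and 73.1 CPM in cluster 9. Notum, an enzyme that removes the lipid Wnts need, stood at 58.3 and 81.6 CPM there. Among these 14 clusters, cluster 9 thus held the highest levels of Wnt5a, Lgr6 and Lef1 together with those of 2 secreted inhibitors.

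**Figure D5:**
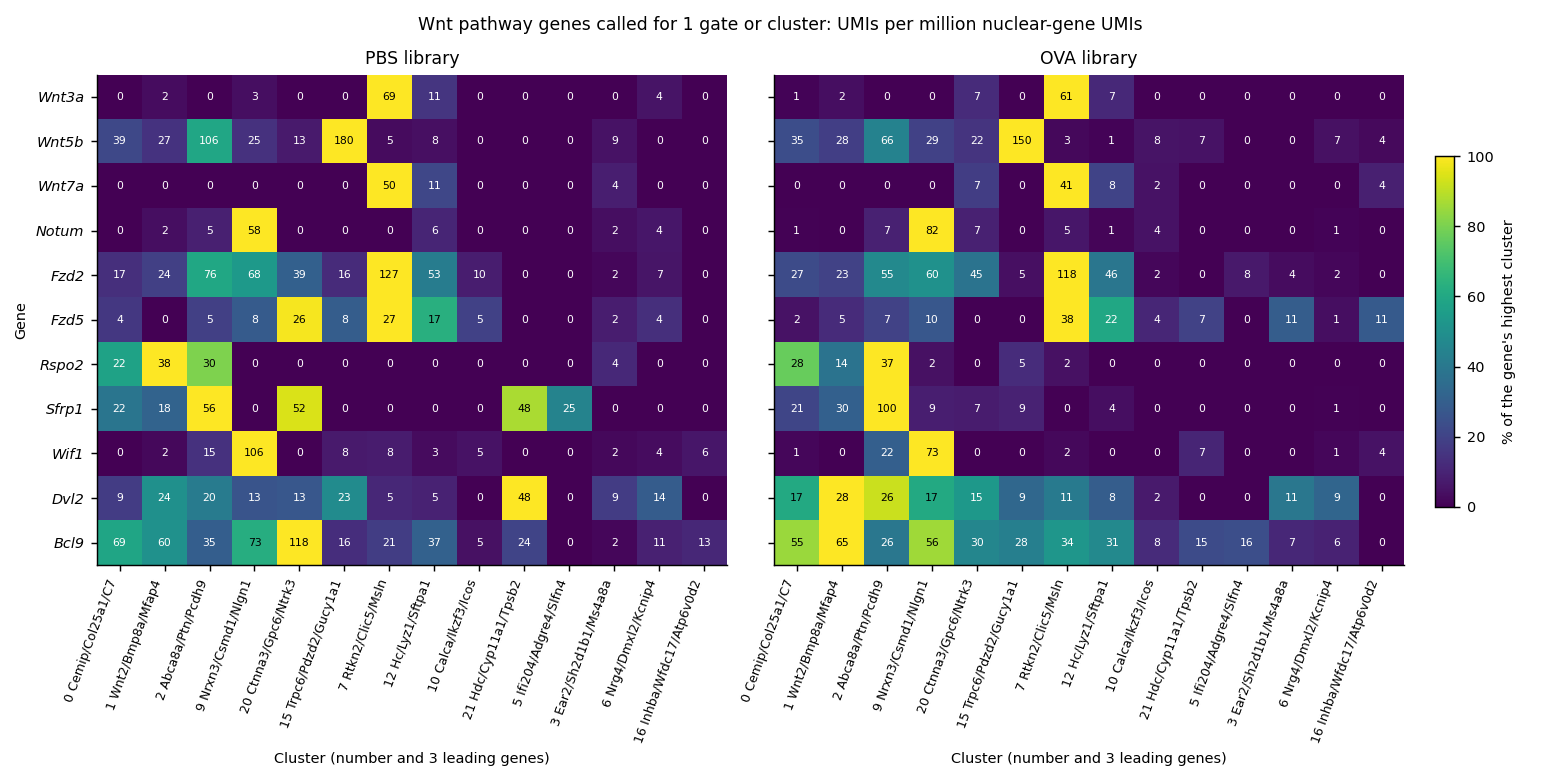
Levels of the Wnt pathway genes that were called for a gate or cluster, in the 14 clusters, PBS and OVA side by side. Numbers are UMIs per 1000000 nuclear-gene UMIs and colour is the percent of the highest cluster of that gene in that library. Wnt3a and Wnt7a are highest in AT1 cluster 7, and Wif1 and Notum in cluster 9.

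Between the libraries none of the 85 genes was called in any of the 8 gates, where 47 could be tested in alveolar fibroblasts, 34 each in AT2 and AT1, 21 in pericytes and 15 in ILC2s. Their median log2 ratio in alveolar fibroblasts was -0.01 beside 0.03 over all genes tested, in AT2 nuclei 0.07 beside 0.04, in ILC2 nuclei 0.33 beside 0.08 and in muscle or myofibroblast nuclei -0.19 beside 0.13. Over clusters 3 of 312 pairs were called higher in the OVA library and 4 lower, where 3.13% of all pairs were called higher and 1.92% lower. The higher ones were Ror2, a Wnt5a receptor, in cluster 2 (95.9 and 207 CPM), the kinase gene Gsk3a in cluster 3 (21.5 and 77.5 CPM) and Pygo2, a partner of Bcl9, in cluster 9 (22.8 and 59.5 CPM). The lower ones were the receptor gene Fzd4 in cluster 0 (51.9 and 22.1 CPM), the planar polarity genes Vangl2 (58.3 and 11.9 CPM) and Daam2 (291 and 128 CPM) in cluster 9, and Wls, which carries Wnts to the cell surface, in cluster 16 (136 and 63.5 CPM).

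The genes most like each of the 10 were listed by Pearson's r of log2(CPM + 10) over 16 points, the 8 gates of both libraries, as a description without a test, since the points share libraries and depth. Over 3737 or 3738 candidate genes, the closest to Wnt2 were Macf1 (r = 0.96), Cacnb4 (0.93) and Gria3 (0.91), and those to Wnt5a were Prdm6 (0.93), Loxl1 (0.92) and Zfpm2 (0.92). Lgr6 was closest to Rgs6 (0.93), Csmd1 (0.91) and Nlgn1 (0.88), the last 2 of which also led cluster 9. Lef1 was closest to Tubb5 (0.94), Ldb1 (0.89) and Piezo2 (0.87). Genes close to Tcf7l2 included Mef2a (0.93) and Mertk (0.91). For Axin2 they were Pknox2 (0.89), Svep1 (0.88) and Eml1 (0.88), and for Lgr4 they were Pkd1 (0.81), Ccnl2 (0.81) and 1810026B05Rik (0.80).

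Among the 10 genes themselves, Wnt5a and Lgr6 were the most alike (r = 0.83), followed by Wnt5a and Lef1 (0.79) and by Lgr6 and Lef1 (0.72). Axin2 had r = 0.71 with Lgr5, which had only 54 UMIs over the gated nuclei of both libraries, 0.69 with Wnt2 and 0.68 with Wnt5a. Tcf7l2 had r = -0.15 with Lef1 and -0.03 with Axin2 over the same 16 points.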

How the data were processed

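RNA and open chromatin of fetal lung nuclei were measured in 1 PBS and 1 OVA library, grouped by the labels' maternal treatment. The authors deposited raw counts: whole UMI counts per gene and whole transposition counts per peak, as written by Cell Ranger ARC 2.0.1 on mm10 (GRCm38) per the submitters' processing notes, with peaks called per library and no normalization. UMIs collapse PCR copies. Nuclei with fewer than 200 genes or more than 60% mitochondrial UMIs were removed. Doublets were called from simulated doublets at 0.8% per 1000 barcodes, which removed 293 PBS and 250 OVA nuclei. Markers covered 21 cell types.

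Counts were summed per gate or cluster and divided by nuclear-gene UMIs, leaving out 13 mitochondrial genes. Levels carry exact Poisson intervals, shares Clopper-Pearson intervals and ratios exact conditional binomial intervals. Clusters came from 3000 variable genes, 30 components, 15 neighbours and Leiden resolution 1. All 10 genes were named. Of the 85 pathway genes those called were named, at most 3 per role and gate, and like genes were the 3 with the highest correlation among non-marker genes with at least 100 UMIs in gated nuclei of each library. One gene this rule picked is not reported here. The promoter of Wnt11 and the correlations among the 10 genes were added after values were seen. The genes, lists and markers were chosen with earlier results of these data known.

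Gene positions came from GENCODE M21 and promoters from RefSeq. Python 3.11.15, numpy 2.4.6, scipy 1.17.1, scanpy 1.11.5 and leidenalg 0.10.2 were used, and the scripts were tested on simulated data. Alternatives changed the denominator, gates, doublet and mitochondrial filters, thinning, UMI minimum, fold and peak window. The study's adult libraries were not analysed here.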

Additional observations from a re-analysis of the deposited data

How the results depend on the processing

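With 1 library per group, no result has a replicate check, and depth limits the rare genes: Wnt11 and Lgr5 could not be ranked, and shallow PBS gates left wide intervals. No paired analysis was possible because neither group had a second library. Of 266 single values recomputed under the alternatives 253 stayed within their limit, 13 moved beyond it and 0 changed sign past a call. The limit was the counting interval for values of single genes and a fixed log2 margin for medians of the pathway genes. Of 64 counts 49 stayed within 1.5 times. The number of the 10 genes called highest in 1 gate was 3, and 5 with a 1.5-fold rule, which added Lef1 and Axin2 and called 26.7% of all genes. The number of gene and gate pairs called between the libraries was 1, and 0 with a stricter gate, 0 with at least 100 UMIs (both leave Wnt5a in the muscle or myofibroblast gate with too few UMIs) and 3 with at most 30% mitochondrial UMIs, which added Lgr4 in alveolar fibroblasts and Tcf7l2 in macrophages. For the 85 pathway genes, 9 were called highest in 1 gate, but 2 after thinning to 500 UMIs, 5 over 8 gates and 4 over 14 clusters. Their pairs called between the libraries were 0, but 4 with all gene UMIs as denominator, 1 with a looser gate, 2 with doublet calls kept, 5 with at most 30% mitochondrial UMIs, 10 with the mean of single-nucleus levels (which has no interval), 2 after thinning, 1 without Gm42418 and AY036118 in the denominator, and 1 when ratios were centred on the median gene. The cause was not tested. The 8 gates, the 14 clusters and the removal of nuclei outside the main clusters of their gate were chosen after seeing the data. Without those nuclei Wnt5a gave -1.07 in the muscle or myofibroblast gate and -0.79 in alveolar fibroblasts, and Wnt2 gave -0.17 in alveolar fibroblasts.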

Other observations

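Lef1, which also serves lymphocyte development, was counted in 2 small lymphoid clusters that the comparisons above left out for their size. A cluster led by Ighm, Pax5 and Ebf1, genes of B cells, had 16 PBS and 33 OVA nuclei with 2 and 16 Lef1 UMIs, levels of 231 CPM (28.0 to 834) and 540 CPM (309 to 877). A cluster led by Gm2682, Gzma and Ccl5, the last 2 being genes of cytotoxic lymphocytes, had 23 and 60 nuclei with 8 and 11 Lef1 UMIs, levels of 692 CPM (299 to 1363) and 260 CPM (130 to 465). The intervals of these clusters overlapped those of cluster 9, except for the cytotoxic cluster of the OVA library, and the intervals of the libraries overlapped each other within both.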
